A study of Homo sapiens with 47 samples.

Results

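Genes for the inner ring and the membrane anchors of the nuclear pore complex (NPC), 10 in all, were followed through bulk RNA sequencing of 2 human cell lines: NUP93, NUP205, NUP188, NUP155, NUP35, NDC1, NUP210, POM121, POM121C and AAAS. They were picked by name, for their place in the pore and not for a measured value, and make up 10 of the 57507 genes quantified. The 47 libraries comprise 32 of HAP1, a near-haploid line from a chronic myeloid leukemia, and 15 of HCT116, a colorectal carcinoma line. In HAP1 there were 4 replicates each of 8 lines: unedited wild-type cells (WT), cells that received the Cas9 plasmid without a guide RNA (empty vector, EV), and the NUP58-edited clones C1 to C6, each grown from 1 sorted cell given Cas9 and a pair of guides against NUP58 and harvested at the first passage. All 6 clones were picked as the smallest viable colonies, so this choice and NUP58 editing cannot be told apart, even in their mean. Clonal origin and NUP58 editing cannot be told apart within any single clone.

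In HCT116, 4 libraries came from a single NUP58-edited clone that carries premature stop codons on both alleles, and 11 came from unedited cells. Of these, 2 were labelled WT, 3 EV1 and 4 EV2, the EV lines again being Cas9 without guides. For the other 2 the title and the genotype conflict, one being titled WT and the other EV1, but both labels name unedited cells. The HCT116 libraries labelled clone replicate 3 and EV2 replicate 3 went against their labels for NUP58. The former held 44.7 FPKM, against 23.3 to 25.3 in the other 3 clone libraries, and the latter 24.0, against 28.7 to 50.3 in the other 10 unedited ones. They are called by their labels, and the tests that use them are given with and without them. In HAP1, NUP58 ran from 7.98 to 28.0 FPKM over the 24 clone libraries and from 34.3 to 50.4 over the 8 unedited ones. The mean of the 6 clones lay below WT by a log2 fold change of -1.48 (SE 0.131, adjusted p = 9.59e-09 from limma). In C4 alone it did not pass (-0.66, adjusted p = 0.196).

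The inner ring is the scaffold that lines the pore where the outer and inner nuclear membranes meet. NUP93 holds it together: it binds the large, related scaffolds NUP205 and NUP188, and docks the central channel complex of NUP62, NUP54 and NUP58, the last being the protein disrupted here. NUP155 and NUP35 tie the ring to the membrane, where NUP35 contacts NDC1. The membrane proteins are NDC1, POM121 and NUP210, and NDC1 holds ALADIN, the WD-repeat protein encoded by AAAS, at the pore. The comparisons ask whether transcripts of these partners differed in cells with impaired NUP58.

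Values are FPKM, the fragments mapped to a gene scaled by the length of its transcripts and by the size of the library, so levels can be set side by side between genes. All 10 genes passed the filter of a mean FPKM of at least 1 in each comparison. The number of fragments behind an FPKM is unknown, but relative depth, read from the value of a single fragment, was 0.759 to 1.142 over the HAP1 libraries and 0.773 to 0.986 over those of HCT116. Nothing in the labels ties the replicates of a line to separate cultures beyond the word replicate. The study calls those of HAP1 independent experimental replicates. The p-values measure the spread between these libraries. In bulk RNA, fewer cells of a type and less RNA per cell cannot be told apart. Of 8 epithelial markers, EPCAM, KRT8, KRT18 and KRT19 reached at least 102 FPKM in each HCT116 library and CDH1 and CDX2 at least 4.19, whereas VIL1 and LGALS4 stayed at or below 0.231. The blood markers PTPRC, SPI1, GATA1 and HBG1 were listed at 0 in all 32 HAP1 libraries and CD34 did not exceed 0.149. HAP1 thus lacked these blood transcripts of its tissue of origin. Its mesenchymal markers were at 71.4 to 158 FPKM (VIM), 2.3 to 11.5 (ZEB1) and 2.85 to 12.05 (CDH2).

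All 10 transcripts were well expressed in unedited cells. In the 8 unedited HAP1 libraries AAAS led with 85.1 ± 5.61 FPKM (SD, n = 8), followed by NUP93 with 69.3 ± 6.16. NUP210 (56.4 ± 11.9), NUP188 (52.4 ± 8.45), NUP205 (45.3 ± 2.36) and NDC1 (43.7 ± 3.74) formed the middle. POM121 and POM121C followed at 31.0 ± 6.498 and 31.0 ± 7.61, and NUP155 (25.9 ± 2.28) and NUP35 (25.1 ± 3.13) came last. The ranges of neighbours in this order overlapped at each step. The lowest of them, NUP35, still lay above 68.4% of the 13153 genes with a mean of at least 1 FPKM in these libraries.

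**Figure D1:**
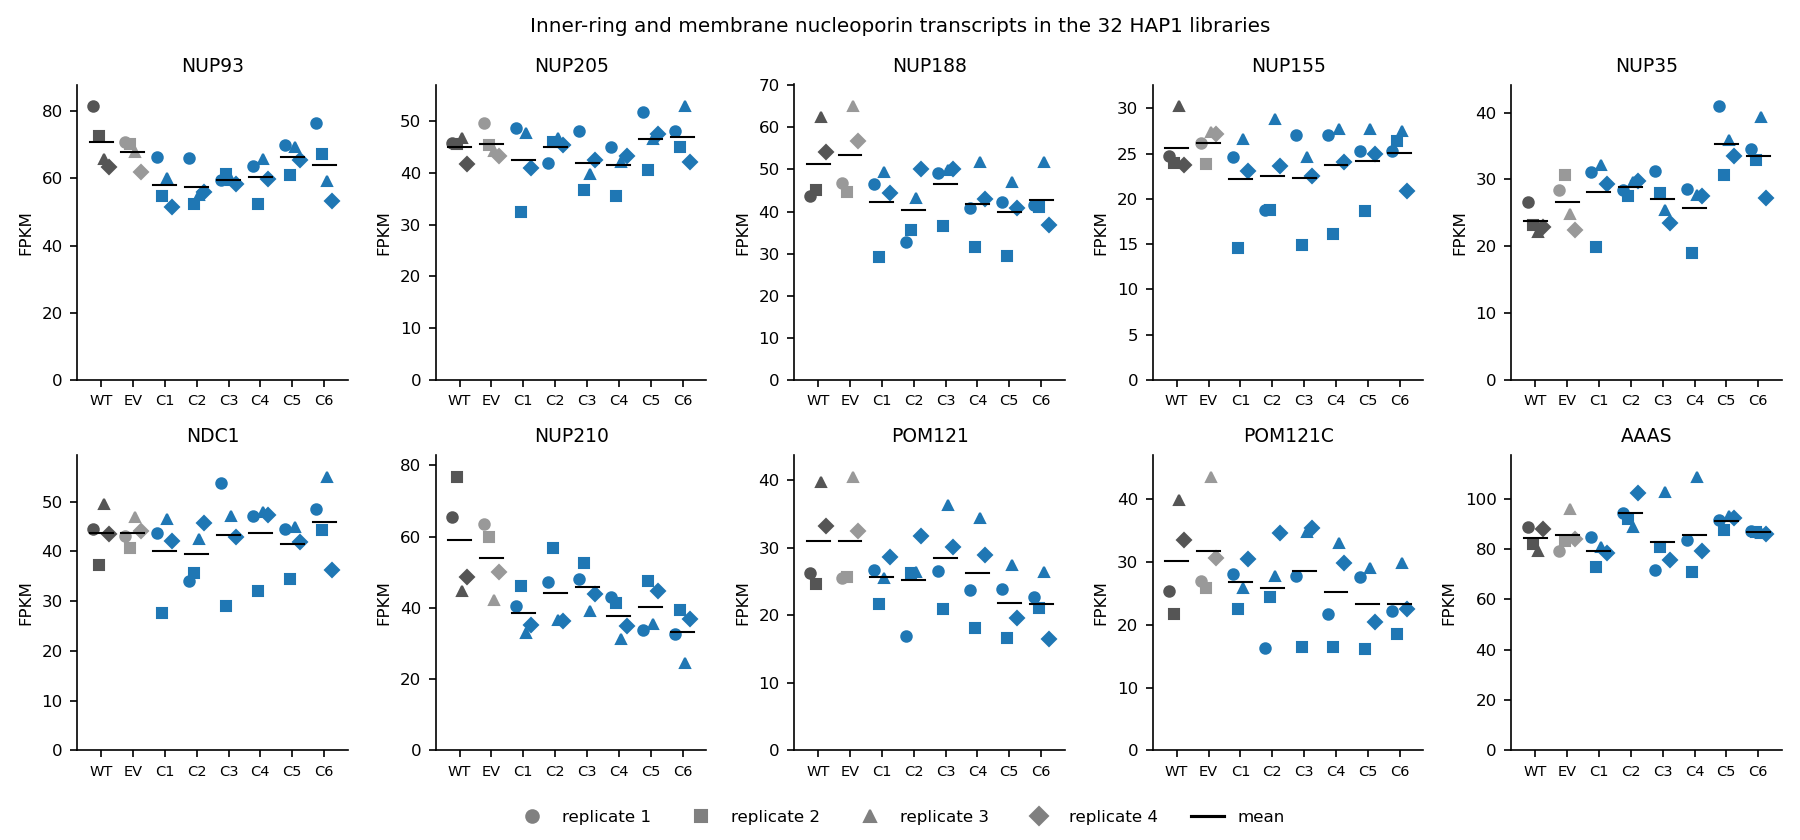
FPKM of the 10 genes in the 32 HAP1 libraries, with 1 panel per gene, 1 column per line and a linear axis from 0. Symbols mark the replicate number, grey is unedited, blue is a NUP58-edited clone, and the bar is the mean of 4 libraries. NUP210 sits lower in the clones (24.5 to 56.7) than in WT (44.7 to 76.7). NUP35 sits higher in C2, C5 and C6 (27.3 to 40.9) than in WT (22.1 to 26.6). NUP205 and AAAS differ little between lines.

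Of the 10 transcripts, NUP210 alone was called in the comparison of the 6 HAP1 clones with WT, and it was lower in the clones. NUP210 (gp210) is a large glycoprotein that spans the membrane once and forms a ring in the lumen of the envelope. Its FPKM in WT was 65.4, 76.7, 44.7 and 48.7 in replicates 1 to 4, and in EV 63.6, 59.9, 42.2 and 50.0. Over the 24 clone libraries it ran from 24.5 through a median of 39.3 to 56.7. Thus 24 of 24 clone libraries lay below the WT mean of 58.9 ± 14.9 (SD, n = 4), and 18 below the lowest WT library. The clones with the lowest means were C6 (32.6, 39.5, 24.5 and 36.7 FPKM in replicates 1 to 4) and C4 (43.2, 41.3, 31.3 and 35.0), and in both each library lay below each WT library.

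For the mean of the 6 clones against WT, the log2 fold change of NUP210 was -0.54 (SE 0.137, 95% interval -0.82 to -0.26, adjusted p = 0.0145 from limma, Benjamini-Hochberg over all genes). This is a mean level 31.0% lower. At an adjusted p under 0.05, 870 of 13180 genes were called in this comparison (6.6%), which is the background for 1 of 10 members. Against EV, which shares the clone libraries, it was -0.43 (SE 0.137, adjusted p = 0.0498 from limma), again the only member called, where 8.47% of genes were called. That call was lost without EV replicate 1 (adjusted p = 0.221), 2 (0.187) or 4 (0.1). The NUP210 call against WT was lost without WT replicate 1 (adjusted p = 0.0886 from limma), without WT replicate 2 (0.114) and without all HAP1 libraries numbered 1 (0.182) or numbered 4 (0.0727), with log2 fold changes of -0.40 to -0.60.

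By single clone, in comparisons that share the 4 WT libraries, the log2 fold change of NUP210 was largest in C6 (-0.79), followed by C4 (-0.61), C1 (-0.58) and C5 (-0.52), and smallest in C2 (-0.40) and C3 (-0.33). Only C6 passed (SE 0.197, adjusted p = 0.0286 from limma), which was lost without C6 replicate 1 (adjusted p = 0.075), without C6 replicate 3 (0.0659) and without WT replicate 1 (0.0819). EV differed from WT by -0.11 (SE 0.189, adjusted p = 0.9995 from limma). The tested genes within 2 Mb of NUP210 on chromosome 3 had a median log2 fold change of 0.06 over the 6 clones, and none of these 25 neighbours lay below NUP210.

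NUP35 was the one member called higher in a clone, in C5 and C6. NUP35 (NUP53) is the small membrane-binding linker of the inner ring. In WT it held 26.6, 23.2, 22.1 and 23.0 FPKM in replicates 1 to 4 and in EV 28.4, 30.7, 24.8 and 22.5. Its level was 40.9, 30.7, 35.97 and 33.5 in C5 and 34.5, 32.9, 39.3 and 27.3 in C6, so that all 8 libraries of these 2 clones exceeded the 4 WT libraries. The 16 libraries of C1 to C4 ran from 18.97 to 32.1, and those of C2 (27.5 to 29.8) also all exceeded the WT libraries. On the log2 scale NUP35 rose by 0.55 in C5 (SE 0.118, adjusted p = 0.0204 from limma) and by 0.47 in C6 (SE 0.127, adjusted p = 0.0384). In C1 to C4 it was 0.10 to 0.27, and no call was made.

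The share of all genes called was 7.55% in C5 and 11.7% in C6, against 0.479% for C1, 0.732% for C2, 0.0911% for C3, 0.16% for C4 and 0.038% for EV. NUP35 was thus called in the 2 clones with the most calls of any kind. For the mean of the 6 clones it was 0.30 against WT (SE 0.108, adjusted p = 0.0983 from limma) and 0.15 against EV (adjusted p = 0.448), since EV itself lay 0.15 above WT. The call in C5 was lost without C5 replicate 1, 3 or 4 and without WT replicate 3 or 4, with adjusted p of 0.0501 to 0.0663. The call in C6 was lost without any of the WT replicates and without C6 replicate 1, 2 or 3 (0.0505 to 0.106). The 8 neighbours of NUP35 on chromosome 2 tested in C6 (within 2 Mb) had a median log2 fold change of 0.47, equal to its own, whereas in C5 the median of 6 such genes was 0.02. Their part in the NUP35 result was not tested.

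The remaining inner-ring genes differed less. NUP93, the organizer of the ring, averaged 70.9 ± 8.03 FPKM over the 4 WT libraries and 61.0 ± 6.43 over the 24 of the clones (mean ± SD), and 15 of the 24 clone libraries lay below each WT library, while none lay above. Its log2 fold change was -0.21 (95% interval -0.38 to -0.05, adjusted p = 0.109 from limma). NUP188 went from 51.4 ± 8.76 to 42.3 ± 7.08, with 14 of 24 clone libraries below each WT library, all 24 below the mean of WT and EV together, and a log2 fold change of -0.28 (95% interval -0.56 to -0.001, adjusted p = 0.248). Its paralogue NUP205 held at 45.0 ± 2.15 in WT and 44.1 ± 4.91 in the clones (-0.04, 95% interval -0.20 to 0.13), with 6 clone libraries below and 8 above the WT range. NUP155, which anchors the ring at the membrane, gave -0.15 (-0.44 to 0.14). None of these 4 passed in this fit, whereas NUP93 and NUP188 passed with the replicate block (adjusted p = 0.0234 and 0.0283 from limma).

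Among the membrane proteins and their partner, NDC1 (-0.06, 95% interval -0.32 to 0.21) and AAAS (0.03, -0.13 to 0.19) stayed close to WT. POM121 was at 31.0 ± 6.92 FPKM in WT against 24.9 ± 5.38 in the clones, a log2 difference of -0.31 that did not pass (adjusted p = 0.28 from limma), and POM121C gave -0.23 (adjusted p = 0.556). The lowest means of both were in C5 and C6, where POM121 reached -0.48 and -0.49 without passing the test (adjusted p = 0.163 and 0.116). Over the 10 genes the median was -0.18 with 8 below 0, beside a median of -0.02 over all genes tested.

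Libraries of the same replicate number varied together in HAP1, and the numbers paired the mean of the clones, C1 to C4 and EV with WT. With the replicate number as a block, 12.6% of genes were called for the mean of the 6 clones against WT, among them NUP93 and NUP188 as given above, NUP210 (adjusted p = 4.38e-05 from limma) and NUP35 (0.0374), 4 members in all. Against EV the blocked fit called 16.7% of genes and 2 members, NUP210 (0.000537) and NUP188 (0.00799). In C1 it called NUP210 (0.0372) among 1.5% of genes, and in C4 NUP210 (0.0168) among 2.43%. In C5 the blocked fit called more members than the fit without a block, and in C6 fewer. Over the main fit and its alternatives, 483 to 2147 of all genes were called in C5 and 679 to 2064 in C6. Without a test, the means of all 6 clones lay below those of both WT and EV for NUP93, NUP188, NUP155, NUP210, POM121 and POM121C. That is 6 of 10 members, where 14.4% of all genes did so, and no member had all clone means above both, where 11.3% did. The 6 are not independent, as NUP188, NUP155, POM121 and POM121C varied together within lines (r = 0.67 to 0.93). No member was called for differences among the 6 clones in a moderated F test, where 15.8% of genes were. NUP35 came nearest (adjusted p = 0.108 from limma).

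**Figure D2:**
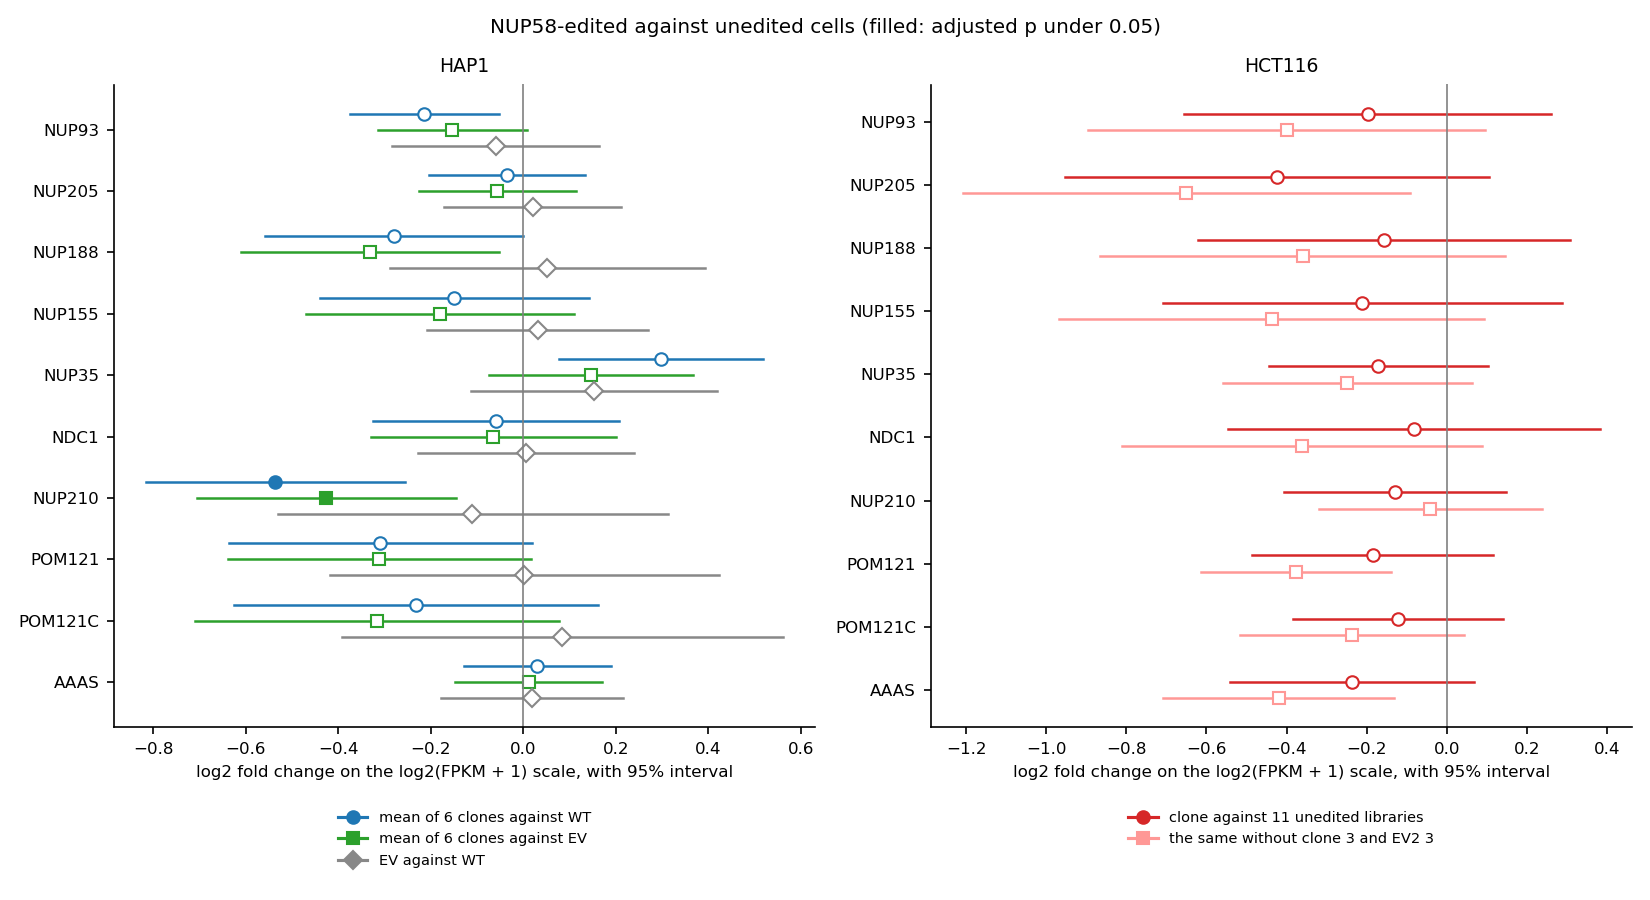
Log2 fold change on the log2(FPKM + 1) scale with 95% interval for the 10 genes, in HAP1 (left: mean of the 6 clones against WT and against EV, and EV against WT) and in HCT116 (right: clone against unedited, with and without the libraries labelled clone 3 and EV2 3). Filled symbols have an adjusted p under 0.05. NUP210 is filled in both HAP1 comparisons of the clones (-0.54 and -0.43), and no symbol is filled in HCT116.

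The 10 transcripts also varied between replicates within a line, and in a shared way. Deviations of log2(FPKM + 1) from the line mean over the 32 HAP1 libraries correlated at r = 0.93 between NDC1 and NUP155, 0.93 between POM121 and POM121C, and 0.88 between NUP188 and POM121. NUP210 ran the other way, with r = -0.81 against NUP188 and -0.79 against POM121, and NUP93 followed neither (0.08 with NUP188, 0.10 with NUP210). These are descriptions over libraries that share lines and replicate numbers. In the 8 libraries numbered 2 NUP188 was at 29.2 to 45.0 FPKM and NUP210 at 39.5 to 76.7, and in the 8 numbered 3 NUP188 was at 43.3 to 65.0 and NUP210 at 24.5 to 44.7. ASNS, the asparagine synthetase gene of the amino acid response, moved with this axis: r was -0.91 with NUP188 and 0.84 with NUP210, and its median FPKM was 234 in the libraries numbered 2 and 50.4 in those numbered 3. Clone and unedited libraries spanned similar ASNS levels (32.5 to 451, median 81.7, and 44.8 to 251, median 93.0). With ASNS as a covariate, the fold change of NUP210 was -0.52 (adjusted p = 3.59e-05 from limma), and NUP188, NUP35 and POM121 were called as well (0.00188, 0.041 and 0.0189). That fit called 14.7% of all genes.

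The promoters of NUP188 and NUP210 are shown because these transcripts varied in opposite directions. Each run is the 250 bases before the RefSeq start (GRCh38.p14), written in the direction of the gene, with capitals for letters of 3 motifs searched on both strands: the E-box CACGTG, the GC box GGGCGG and the CCAAT box CCAAT. NUP188 is at chr9:128947449-128947698 on the plus strand and NUP210 at chr3:13420323-13420572 on the minus strand.
NUP188: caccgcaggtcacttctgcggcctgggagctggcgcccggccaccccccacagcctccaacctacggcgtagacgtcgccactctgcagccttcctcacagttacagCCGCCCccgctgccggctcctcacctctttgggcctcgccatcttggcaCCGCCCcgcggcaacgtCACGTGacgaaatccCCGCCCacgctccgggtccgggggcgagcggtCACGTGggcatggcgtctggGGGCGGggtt
NUP210: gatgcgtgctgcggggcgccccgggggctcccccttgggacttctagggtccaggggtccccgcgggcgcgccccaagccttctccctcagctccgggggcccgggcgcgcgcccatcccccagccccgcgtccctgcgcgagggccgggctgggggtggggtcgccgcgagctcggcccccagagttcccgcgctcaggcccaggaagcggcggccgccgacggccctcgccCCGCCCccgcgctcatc
NUP188 held 2 E-boxes, which 6.34% of 35116 promoter windows of this length hold at least once, and 4 GC boxes, which 42.6% hold. NUP210 held 1 GC box and no E-box, and neither held a CCAAT box, which 32% of windows hold. No other member held an E-box either, among them NDC1, NUP155, POM121 and POM121C, which varied with NUP188. The GC content was 80.8% for NUP210, higher than in 97.4% of windows, and 71.2% for NUP188. A match is a string of letters and not a bound site.

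**Figure D3:**
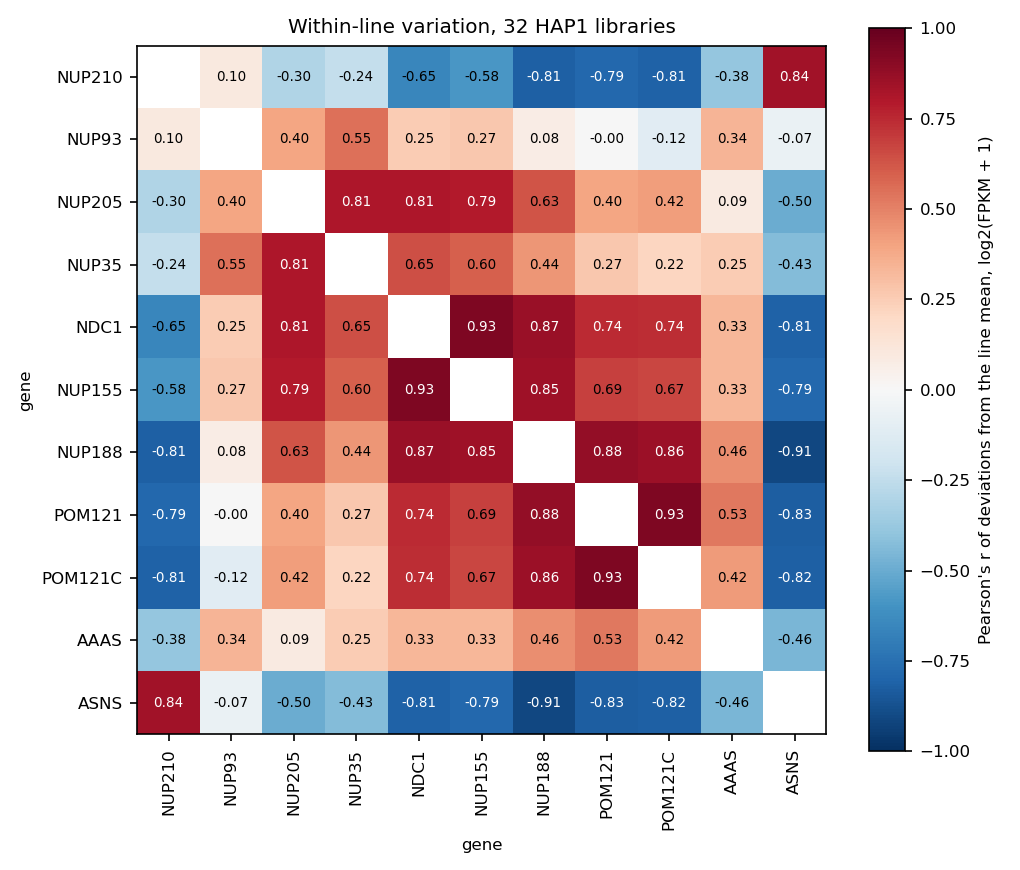
Pearson's r between genes of their deviations from the line mean of log2(FPKM + 1) over 32 HAP1 libraries, with red for positive and blue for negative values. NDC1, NUP155, NUP188, POM121 and POM121C form a red block (0.67 to 0.93), NUP210 is blue against it (-0.58 to -0.81), and ASNS is red with NUP210 (0.84).

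By the rule of naming the single gene most alike over the 32 libraries, POM121C was closest to POM121 (r = 0.92), POM121 to E2F4 (0.94), NUP155 to NDC1 (0.91), NDC1 to DNAJC2 (0.92), NUP188 to POLR1E (0.92) and NUP205 to TRIP13 (0.86). NUP210 was closest to CGNL1 (0.90), NUP35 to TMEM237 (0.87), NUP93 to SLC9A3R1 (0.79) and AAAS to PSMB6 (0.76). NUP155, on chromosome 5, was thus closest to NDC1, a fellow member on chromosome 1, while NDC1 was itself closest to DNAJC2.

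POM121 and POM121C are near-identical copies on chromosome 7 of GRCh38. POM121, a membrane protein of vertebrate pores, lies at chr7:72879349-72951440 on the plus strand and POM121C at chr7:75416786-75486299 on the minus strand. Their annotated coding sequences (GENCODE release 44) span 3747 and 2961 bases. In an alignment of 2952 bases 98.7% were identical, with 39 mismatches, and 795 bases of POM121 had no counterpart in POM121C. Of the windows as long as a single read along the canonical POM121 transcript, 19% occur letter for letter in any annotated POM121C transcript. A single read from such a window cannot be assigned to one copy, so the split between the 2 genes is uncertain. The stretch shown is the one that differs most within the aligned coding sequence, with the 7 differing bases of 90 in capitals. It lies in exon 11 of POM121, at chr7:72942997-72943086 on the plus strand, and in exon 13 of POM121C, at chr7:75421948-75422037 on the minus strand.
POM121: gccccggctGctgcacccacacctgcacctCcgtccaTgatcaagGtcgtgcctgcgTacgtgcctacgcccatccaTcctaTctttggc
POM121C: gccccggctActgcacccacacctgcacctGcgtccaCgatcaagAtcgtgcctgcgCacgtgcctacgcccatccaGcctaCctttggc
The 250 bases before their RefSeq starts are nearly as close (95.8% of 236 aligned bases). They are shown because the 2 transcripts varied together, with mismatched and unaligned bases in capitals. The part of shared reads in that correlation was not tested. They lie at chr7:72879107-72879356 on the plus strand and at chr7:75486300-75486549 on the minus strand.
POM121: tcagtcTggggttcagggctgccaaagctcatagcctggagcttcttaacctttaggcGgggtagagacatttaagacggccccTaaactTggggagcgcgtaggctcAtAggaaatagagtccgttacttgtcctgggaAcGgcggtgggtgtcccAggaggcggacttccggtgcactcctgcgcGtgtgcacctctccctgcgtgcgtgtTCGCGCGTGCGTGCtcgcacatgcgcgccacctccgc
POM121C: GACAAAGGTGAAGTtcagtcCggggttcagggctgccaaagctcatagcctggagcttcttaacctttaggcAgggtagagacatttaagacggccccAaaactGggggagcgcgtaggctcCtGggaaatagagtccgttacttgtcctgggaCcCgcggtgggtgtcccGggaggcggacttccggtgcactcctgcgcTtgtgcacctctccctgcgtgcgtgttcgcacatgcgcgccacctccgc
The ratio of POM121 to POM121C in FPKM had a median of 0.99 over the 32 HAP1 libraries (0.73 to 1.27) and 0.97 over the 15 HCT116 libraries (0.71 to 1.12). The mean log2 ratio was 0.01 ± 0.09 in unedited HAP1 (SD, n = 8) and -0.06 ± 0.19 in unedited HCT116 (SD, n = 11), a difference of 0.07 (two-sided exact permutation p = 0.397). The lowest HCT116 ratio was that of the library labelled EV2 3, without which the unedited mean was -0.01 ± 0.13 (SD, n = 10) and the difference 0.02 (exact permutation p = 0.682).

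In HCT116 no member was called for the clone against the 11 unedited libraries, nor was any of 12960 genes (0%), although 1342 had an unadjusted p under 0.05 in limma. All 10 members had a mean below the controls, with log2 fold changes of -0.42 (NUP205) to -0.08 (NDC1) and a median of -0.18, beside 0.004 over all genes. Of all genes 49.1% lay below 0, and so did 17 of 21 nucleoporins outside this set. The 10 need not be independent, since several members varied together within HAP1 lines. NUP205 was 20.7, 18.6, 32.4 and 20.9 FPKM in clone replicates 1 to 4, against 18.0 to 50.4 (median 31.0) in unedited cells, and AAAS was 37.2, 39.4, 66.8 and 47.8 against 45.6 to 70.4 (median 55.6). In both genes the clone library labelled 3 was the highest of the 4 clone libraries. It exceeded the other 3 for each member but NUP210, where it was the lowest (24.0 against 31.5 to 36.6).

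Without the libraries labelled clone 3 and EV2 3, 7.62% of genes were called and still no member. All 10 again lay below the controls, with a median of -0.37 beside 0.01 over all genes. Of the 21 nucleoporins outside this set, 16 lay below. POM121 came closest with -0.38 (SE 0.111, adjusted p = 0.0516 from limma). Its 3 clone libraries, at 18.0, 19.6 and 19.2 FPKM, lay below all 10 unedited ones at 20.5 to 31.7. AAAS followed with -0.42 (adjusted p = 0.0702) and NUP205 with -0.65 (adjusted p = 0.134, 95% interval -1.21 to -0.09). NUP210 gave -0.04 (-0.32 to 0.24). ASNS was 42.6 to 75.3 FPKM in the 4 clone libraries and 66.8 to 349.5 in the unedited ones, so its level moved with the clone here, and its part in these values was not tested. Set against the 2 WT libraries alone, with all 4 clone libraries kept, 5 of the 10 members lay above the controls and 5 below. The 5 above were NUP93, NUP205, NUP188, NUP155 and NDC1, and this rested on the library labelled clone 3. Without it the clone mean was 40.03 FPKM against 44.29 in WT for NUP93 and 28.64 against 33.5 for NDC1. It was 20.1 against 21.31 for NUP205 and 40.77 against 40.89 for NUP188, and NUP155 was also lower. These differences were not tested.

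**Figure D4:**
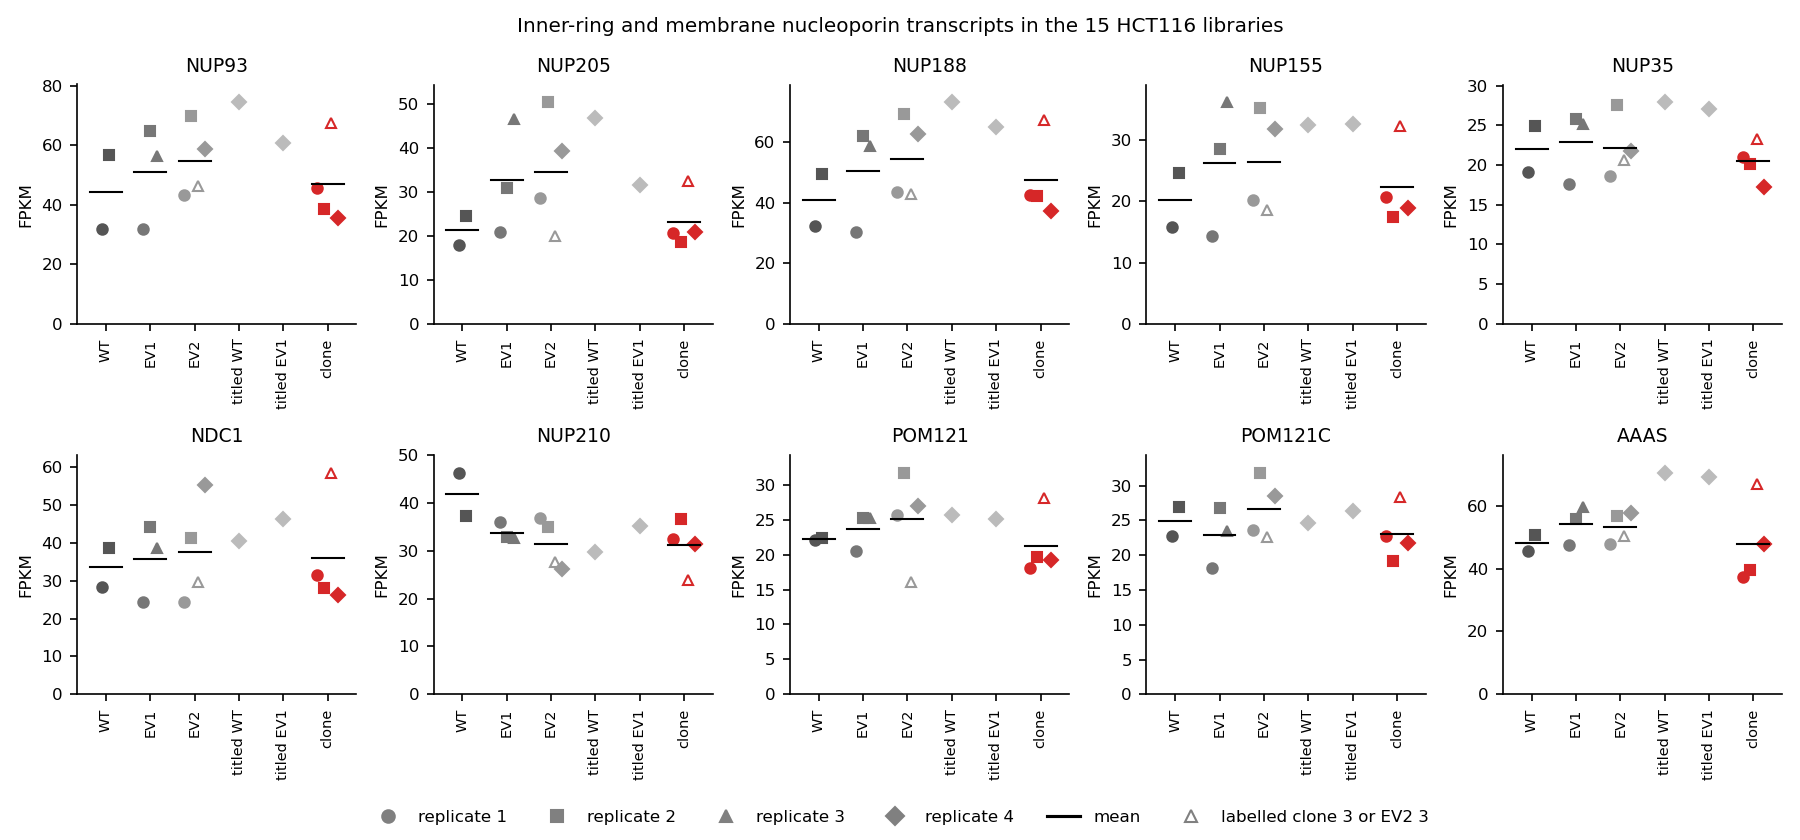
FPKM of the 10 genes in the 15 HCT116 libraries, with 1 panel per gene and a linear axis from 0. Grey marks unedited libraries, red the clone, bars are means of groups with 2 or more libraries, and open triangles are the libraries labelled clone 3 and EV2 3. For NUP205 the other 3 clone libraries lie at 18.6 to 20.9 and the unedited ones spread from 18.0 to 50.4.

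A test of the interaction, whether the clone effect differed between HAP1 and HCT116, called no member and 1.8% of genes. The largest differences were 0.47 for NUP35 (95% interval 0.13 to 0.80, adjusted p = 0.14 from limma), which gave 0.30 in the HAP1 clones and -0.17 in the HCT116 clone, and -0.41 for NUP210 (95% interval -0.80 to -0.01, adjusted p = 0.335). Without the libraries labelled clone 3 and EV2 3 the interaction called 7.42% of genes and 1 member, AAAS (0.45, SE 0.142, adjusted p = 0.0432 from limma), which gave 0.03 in HAP1 and -0.42 in HCT116. NUP35 then gave 0.55 (adjusted p = 0.0503).

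Between the unedited cells of the 2 lines, 6 members were higher in HAP1 and none lower. In this comparison 68% of all genes were called, and 39.5% of all genes were called as higher in HAP1. AAAS showed the clearest gap, with 79.3 to 96.0 FPKM in the 8 HAP1 libraries (median 83.6) and 45.6 to 70.4 in the 11 of HCT116 (median 55.6), and no overlap. The log2 fold change was 0.62 (SE 0.081, adjusted p = 6.76e-07 from limma). NUP210 was 56.4 ± 11.9 against 34.1 ± 5.47 FPKM (0.70, SE 0.114, adjusted p = 1.24e-05), with 6 of 8 HAP1 libraries above all of HCT116. NUP205 gave 0.54 (adjusted p = 0.00719), NUP93 0.40 (0.0171), POM121 0.33 (0.0151) and POM121C 0.27 (0.0479). NUP188 (0.01, 95% interval -0.32 to 0.33), NUP155 (0.03), NUP35 (0.11) and NDC1 (0.26, adjusted p = 0.0899) did not pass.

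The median over all genes was 0.10 here, and scaling by median ratios brought it to -0.02. Under that scaling, which called 66.8% of all genes, 3 members remained called, AAAS (0.49), NUP210 (0.57) and NUP205 (0.41), while NUP188, NUP155 and NUP35 fell on the other side of 0 (-0.12, -0.10 and -0.01) without passing. POM121C lost its call without any one of 11 of the 19 libraries (adjusted p = 0.0519 to 0.126 from limma), EV2 replicate 3 among them (0.07). The other 5 were called whichever library was left out, and NDC1 was called without EV2 replicate 4 (0.0261). Each cell line stands for itself, and these libraries replicate 1 HAP1 and 1 HCT116 stock.

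The related scaffolds NUP188 and NUP205 differed in their balance between the lines, a measure that no scaling of a library can move. The ratio of NUP188 to NUP205 in FPKM was 0.94 to 1.47 (median 1.14) in unedited HAP1 and 1.26 to 2.16 (median 1.59) in unedited HCT116, with some overlap. The mean log2 ratio was 0.20 ± 0.26 (SD, n = 8) and 0.75 ± 0.26 (SD, n = 11), a difference of -0.55 (two-sided exact permutation p = 0.00045, adjusted over the 2 ratios p = 0.0009). Without EV2 replicate 3 the difference was -0.52 (exact permutation p = 0.000731). The HCT116 clone had ratios of 1.79 to 2.27, with a mean log2 ratio 0.28 above the unedited libraries (exact permutation p = 0.074, adjusted p = 0.148) and 0.31 above without the 2 doubtful libraries (exact permutation p = 0.0874, adjusted p = 0.14). The 24 HAP1 clone libraries ranged from 0.73 to 1.25.

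**Figure D5:**
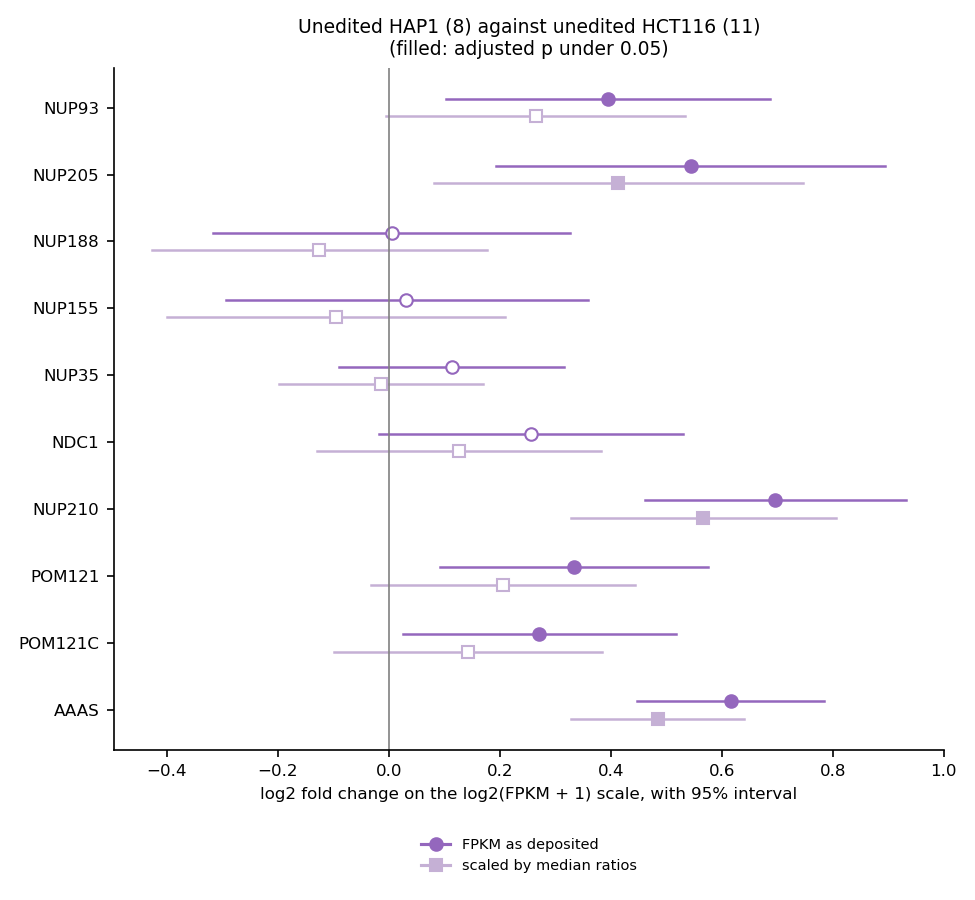
Log2 fold change of the 10 genes between 8 unedited HAP1 and 11 unedited HCT116 libraries on the log2(FPKM + 1) scale, with 95% interval, for FPKM as deposited and after scaling by median ratios. Filled symbols have an adjusted p under 0.05, and positive values are higher in HAP1. AAAS, NUP210 and NUP205 are filled under both, at 0.62, 0.70 and 0.54 as deposited.

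For the rest of the pore, 21 other nucleoporins (outer ring, channel, cytoplasmic filaments and nuclear basket) were tested. When the HAP1 clones were set against WT, 1 was called lower and none higher, with 13 below 0 and a median of -0.05, where 6.6% of all genes were called and 53.2% lay below 0. The gene called was GLE1, an mRNA export factor of the cytoplasmic face (-0.25, SE 0.064, adjusted p = 0.0131 from limma). Of 11 factors of pore assembly and the nuclear envelope (torsins and their partners, reticulons, SUN proteins, TMEM33, CHMP7 and LEMD2), none was called and 8 lay above 0. Neither list had a call against EV, where the clone libraries are the same. In HCT116 the fit by labels called no gene at all. Without the libraries labelled clone 3 and EV2 3 it called 7.62% of genes but none of either list, with medians of -0.18 for the other nucleoporins and -0.02 for the assembly factors. Between unedited HAP1 and HCT116, 10 of the 21 other nucleoporins were called higher in HAP1 and 1 lower (TPR), and of the 11 factors 3 were called higher and 7 lower, beside 68% of all genes called and 39.5% called higher. Without EV2 replicate 3 these counts were 10 and 1, and 4 and 7.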

How the data were processed

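Total RNA of 47 libraries was sequenced as read pairs. As the labels and the study's methods describe it, the authors checked reads with FastQC, trimmed adaptors, aligned to GRCh38 with STAR and quantified with RSEM (versions are not given in the sources used here). They deposited FPKM values for 57507 genes without further normalization between libraries. FPKM totals were 604053 to 721992 per library. A few abundant transcripts can lower the FPKM of all others, and near-identical copies share reads. Strand handling is not given in the sources used here, so that NUP188, which overlaps SH3GLB2 on the other strand, may hold some of its reads. NUP188 also overlaps an unnamed protein-coding gene on its own strand (chr9:128941478-128957021), whose reads strand cannot separate.

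Libraries were grouped by their labels. Log2(FPKM + 1) of genes with a mean of at least 1 was fitted with limma 3.58.1 in R 4.3.3 (lmFit, eBayes with trend, two-sided), with Benjamini-Hochberg adjustment over all genes tested and calls at an adjusted p under 0.05. The clone means and the comparison with EV came from 1 fit of 32 libraries, single lines from fits of 8, in which the spread is that between libraries and not between clones. Fold changes on this scale understate those of low genes. Ratios were compared by exact permutation tests. Fits were tested on simulated data with independent spread per library, which held no shared variation by replicate number. Deviations from line means correlated across genes between same-numbered libraries at 0.356 to 0.72 for the mean of the clones and WT, over 0.1 in all 4 pairs also for EV and C1 to C4 but in 2 of 4 for C5 and C6, and a replicate block was run for this reason. The members, lists (with NUP42 listed as NUPL2), comparisons and alternatives were chosen with earlier results of these data known. Named genes were all 10 members, NUP58, list genes called against WT and the gene most alike to each member. Positions came from GENCODE release 44 and promoters from RefSeq, both on the authors' build. Alternatives were other pseudocounts, filters, scalings, control sets and left-out libraries. The block together with ASNS, and the gene lists without the libraries labelled clone 3 and EV2 3, were chosen after seeing the data.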

Additional observations from a re-analysis of the deposited data

Results flagged for a closer look

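Within groups of 4 libraries, 3 of 100 combinations of gene and group had 1 library far from the rest by Dixon's criterion, and chance gives about 1 in 20. All 3 were the library numbered 2 of a HAP1 clone, and each was the lowest of its group. NUP188 in C3 replicate 2 was 36.6 FPKM, against 49.1 to 50.2 in the other 3. In C4 replicate 2, NUP35 was 18.97 FPKM (27.5 to 28.6 in the others) and NDC1 was 32.05 (47.1 to 48.0). The ASNS level of the HAP1 libraries numbered 2, at 143 to 451 FPKM, was also the highest by median of the 4 numbers, and its part in these values was not tested.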

How the results depend on the processing

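Numbers here are members called out of 10, and they are not read as results about the members. With all 6 HAP1 clones against WT (1, NUP210), it was 4 with the replicate block, 3 with WT and EV together, 4 with ASNS as a covariate, 5 with the block and ASNS together (chosen after seeing the data), 2 without clone C4 (12.6%, 17.5%, 14.7%, 17.7% and 8.21% of all genes called in turn, against 6.6%), and 0 to 2 with replicates left out. Against EV (1) it was 0 with a pseudocount of 0.1, without a filter, with a mean FPKM of at least 5, after scaling to TPM and without trend, 2 with the block, and 0 to 1 with replicates left out. Shares of all genes called were 8.43%, 4.39%, 8.19%, 8.23% and 8.63% in turn, and 16.7% with the block, against 8.47%. The block gave 1 in C1 and 1 in C4. In C5 (1) it was 0 unmoderated and 0 to 1 with replicates left out, and in C6 (2) it was 0 without a filter, 1 after median ratios, 1 without trend, 0 unmoderated and 0 to 2 with replicates left out. The block gave 3 in C5 and 1 in C6, in each of which 2 of 4 same-numbered pairs with WT correlated over 0.1. Over the main fit and its alternatives, 483 to 2147 genes were called in C5 and 679 to 2064 in C6. For differences among the clones the block gave 2, and 1108 to 3412 genes were called over the main fit and its alternatives. The block changed the call of no other clone or of EV. Unedited HAP1 against HCT116 (6) gave 3 after median ratios (66.8% of all genes called) and 3 for WT libraries alone (41.5%), 5 without a filter, 5 without trend, 7 after scaling to TPM, 7 with the block (NDC1 added) and 5 to 7 with libraries left out. Over these fits, 5666 to 12138 genes were called. The interaction (0) gave 1 without the libraries labelled clone 3 and EV2 3. The causes were not tested.

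Of 2195 member fold changes under alternatives, 2026 kept direction and side of the threshold, 63 lost and 23 gained a call, and 83 that were not called changed sign, the largest of size 0.20. Over all genes, 265 to 2338 were called in the clones against WT, 594 to 2196 against EV and 0 to 990 in HCT116. Fragment numbers are unknown, so counting error could not be set against these spreads, and with 1 clone per allele the spread is that between libraries.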
